A study of Mus musculus with 67 samples.

Results

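Transcript levels of the regulators that process and degrade GLI proteins were taken from 14 RNA-seq libraries of mouse forelimb buds. The set comprised 9 genes matched by their symbol in the deposited gene tables, *Sufu*, *Spop*, *Prkaca*, *Prkar1a*, *Gsk3b*, *Csnk1a1*, *Btrc*, *Cul1* and *Cul3*, out of 46983 gene identifiers. All 9 were found once in every table and all 9 passed the low-expression filter of every comparison, which kept genes with at least 1 TPM (a transcript level scaled by transcript length and library size) in at least 3 libraries. The genes were chosen for what their proteins do, with earlier results of these data known. The series compared limb buds before and after the onset of Hedgehog (HH) signaling, with and without GLI3, the main GLI repressor of the limb.

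The groups sequenced were E9.25 WT (3 libraries), E9.25 *Gli3*-/- (4), E10.5 WT (4) and E10.5 *Gli3*-/- (3). The E9.25 libraries held whole forelimb buds of embryos with 21 to 23 somites, about 4 pairs of buds pooled per library, and the E10.5 libraries held only the anterior part of buds of embryos with 32 to 35 somites, 2 pairs pooled by their labels. Stage and the part of the bud that was dissected therefore changed together and cannot be told apart. The study's methods give one pool size for both stages, so whether the number of pooled buds also changed is not settled. The *Gli3*-/- embryos were homozygous for the *Gli3* Xt-J allele, a germline deletion carried in every cell, which was maintained on a Swiss Webster background. The study's methods give no separate background for the WT embryos. In bulk tissue, fewer cells of a type and less RNA per cell cannot be told apart. Labels number the libraries but do not say that same-numbered libraries came from 1 litter, so p-values measure the spread between pooled samples.

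GLI2 and GLI3 are made as full-length proteins whose fate is set in the cytoplasm and the primary cilium. Without HH ligand, SUFU holds them in the cytoplasm, protein kinase A (PKA) phosphorylates them, and GSK3-beta and casein kinase 1 add further phosphates. The phosphorylated stretch is read by beta-TrCP, the substrate adaptor of a CUL1-based ubiquitin ligase, and the proteasome then trims GLI3 to a truncated repressor. GLI that escapes SUFU is instead bound by SPOP, the adaptor of a CUL3-based ligase, and destroyed whole. All of these steps act on protein, so transcript levels show only how much message for the machinery was present.

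Sequencing depth, estimated from the tables, was 38.1 to 56.8 M reads per library (median 47.1), at which 1 TPM stood for 20.7 to 29.3 reads per kilobase of transcript, so the lowest member value, 8.595 TPM, was well above the filter. The *Gli3* transcript was lower in *Gli3*-/- at E10.5 (40.9, 40.3 and 38.7 TPM against 84.3, 73.4, 89.7 and 79.1 in WT). At E9.25 the *Gli3*-/- libraries gave 14.3, 20.6, 20.8 and 19.1 TPM and the WT libraries 44.2, 15.8 and 44.6, so WT replicate 2 lay among the mutants. By *Ptch1* (2.48 to 8.08 TPM in E9.25 WT, 21.4 to 38.5 in *Gli3*-/-) and *Foxf1* (0.221 to 2.80 and 12.1 to 35.5), WT replicate 2 stood with the other WT libraries. That library also had the fewest genes at 1 TPM (13276, against up to 15816), and its genes spanning at least 100 kb stood at a median of -0.51 on the log2 scale relative to the other WT libraries of its stage, against -0.20 for all genes. Limb mesenchyme markers were present throughout (6 of 6 in every group, summed 547 to 919 TPM), whereas the 5 flank and lateral plate markers (*Foxf1*, *Gata4*, *Gata5*, *Gata6*, *Hand1*) summed to 22.5 to 61.3 TPM in E9.25 WT, 76.4 to 216 in E9.25 *Gli3*-/- and at most 3.98 at E10.5. The E10.5 genotypes did not overlap in the mesenchyme sum, at 762 to 919 TPM in WT and 588 to 630 in *Gli3*-/-. *Prrx1*, *Twist1* and *Msx1* were lower in *Gli3*-/- (-0.56, -0.65 and -0.86 on the log2 scale) and *Fgf10* was higher (1.05). *Tbx5* (0.13) and *Lmx1b* (-0.03) were not called. These genotypes also did not overlap in the sum of 6 surface ectoderm and ridge markers, at 178 to 217 in WT and 267 to 301 in *Gli3*-/-. *Fgf8* was the one called higher there (131 to 171 TPM, against 50.4 to 69.0 in WT). *Epcam* (0.11) had a higher mean and *Cdh1* (-0.26), *Krt8* (-0.12), *Krt18* (-0.24) and *Trp63* (-0.38) a lower one, none of them called. The part of mesenchyme and ectoderm cells in the E10.5 genotype differences was not tested. Red blood cell markers summed to between 6912 and 33323 TPM. From E9.25 to E10.5 in WT the summed level of 3 muscle progenitor markers went from 2.29 to 3.83 TPM up to 23.4 to 32.96, and that of 3 macrophage markers from 0.0634 to 0.744 up to 4.02 to 6.15, and the part of these cells in the stage differences was not tested.

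The members differed widely in level. Averaged over the 14 libraries, *Csnk1a1* was highest at 200.2 TPM, followed by *Prkar1a* at 161, *Cul1* at 140.3, *Prkaca* at 86.0, *Cul3* at 61.7, *Spop* at 46.9, *Gsk3b* at 36.3, *Sufu* at 32.3 and *Btrc* at 12.01. *Csnk1a1* stood at the 95.1 percentile of the 16368 genes tested across all 14 libraries and *Btrc* at the 47.9 percentile. The order was nearly the same in each group. *Csnk1a1* led and *Btrc* came last everywhere, and the single change was that *Prkar1a* stood above *Cul1* in 4 of 4 E10.5 WT and 3 of 3 E10.5 *Gli3*-/- libraries, whereas *Cul1* stood above it in 3 of 3 E9.25 WT and 2 of 4 E9.25 *Gli3*-/- libraries. Some neighbors in this order had overlapping ranges within a group, but values of 1 library are paired, and the order within libraries often held. *Prkaca* stood above *Cul3* in 3 of 3 E9.25 WT and 4 of 4 E9.25 *Gli3*-/- libraries, *Cul3* above *Spop* in 2 of 3 and 4 of 4, and *Csnk1a1* above *Cul1* in 3 of 3 E9.25 WT libraries, although each of these pairs of ranges overlapped. *Gsk3b* and *Sufu* overlapped in all 4 groups, and *Gsk3b* was the higher in 2 of 3 E9.25 WT, 3 of 4 E9.25 *Gli3*-/-, 4 of 4 E10.5 WT and 3 of 3 E10.5 *Gli3*-/- libraries. *Spop* and *Gsk3b* overlapped in E9.25 *Gli3*-/- (*Spop* higher in 4 of 4) and in E10.5 WT (2 of 4). The order was split evenly for that pair and for *Csnk1a1* and *Prkar1a* in E10.5 WT (2 of 4), and for *Cul1* and *Prkar1a* in E9.25 *Gli3*-/- (2 of 4), so these did not differ beyond their spread. Across all libraries *Cul1* varied least, 1.44-fold from lowest to highest, and *Gsk3b* most, 4.41-fold.

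**Figure D1:**
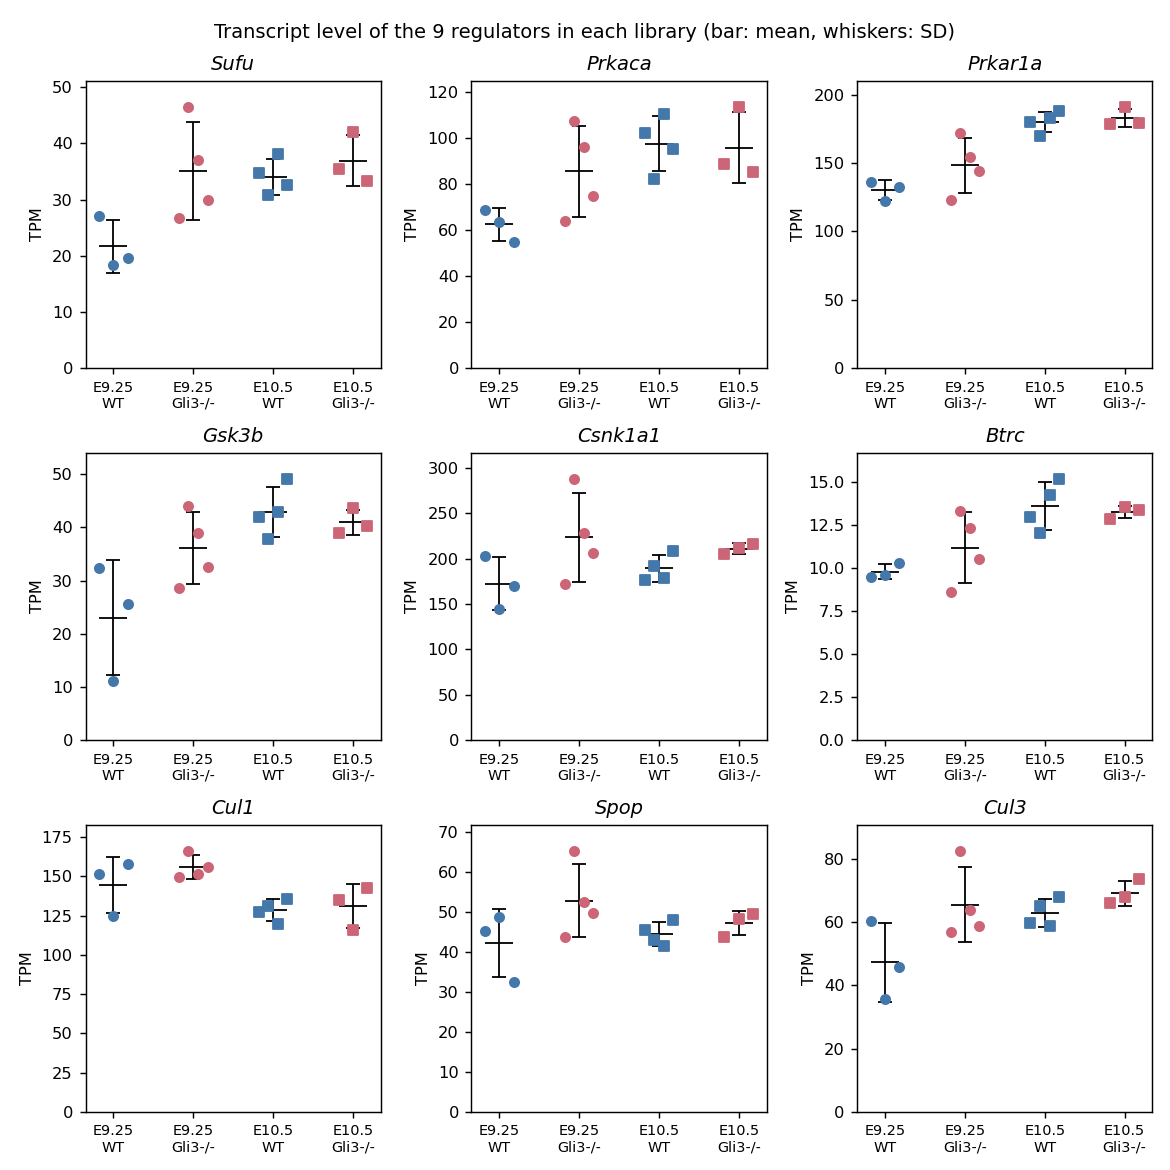
TPM of each of the 9 regulators (one panel each, y axis from 0) in every library of the 4 groups on the x axis, with points for libraries, horizontal bars for means and whiskers for the SD. E9.25 WT sits below E10.5 WT without overlap for *Sufu*, *Prkaca*, *Prkar1a*, *Gsk3b* and *Btrc*, while *Cul1* is flat or lower at E10.5 and the genotypes overlap in every panel.

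The proximal promoters of the members for which RefSeq sequence was at hand (7 of the 9, GRCm38.p6) are shown for the 3 genes with the largest stage differences in WT, described below. Each is the 250 bases before the annotated transcription start, 5′ to 3′ on the gene's strand, which starts at the first base of the deposited gene model. Capitals mark CCAAT (or ATTGG on the other strand), GGGCGG (or CCGCCC) and TATAAA (or TTTATA).
Sufu, chr19:46396646-46396895, plus strand: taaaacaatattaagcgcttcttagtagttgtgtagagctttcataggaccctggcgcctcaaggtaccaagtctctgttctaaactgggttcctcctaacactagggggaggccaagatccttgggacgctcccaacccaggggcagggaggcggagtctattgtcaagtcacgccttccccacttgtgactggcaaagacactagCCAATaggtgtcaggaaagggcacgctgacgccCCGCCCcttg
Prkaca, chr8:83972728-83972977, plus strand: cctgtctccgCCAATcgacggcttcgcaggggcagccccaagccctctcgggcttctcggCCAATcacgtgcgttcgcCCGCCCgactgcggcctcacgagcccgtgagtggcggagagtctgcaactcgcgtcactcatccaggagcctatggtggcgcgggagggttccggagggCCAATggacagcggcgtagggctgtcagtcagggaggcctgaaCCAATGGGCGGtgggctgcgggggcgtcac
Gsk3b, chr16:38088751-38089000, plus strand: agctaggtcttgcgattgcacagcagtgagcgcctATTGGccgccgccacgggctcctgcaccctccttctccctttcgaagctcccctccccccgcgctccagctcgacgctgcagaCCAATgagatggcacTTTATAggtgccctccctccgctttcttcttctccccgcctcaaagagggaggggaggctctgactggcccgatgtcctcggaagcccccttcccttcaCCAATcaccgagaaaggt
All 3 hold CCAAT in one orientation or the other, 1 match in *Sufu*, 4 in *Prkaca* and 3 in *Gsk3b*, where 33.8% of all 32851 windows of this length hold at least 1. GGGCGG occurs once in *Sufu*, 2 times in *Prkaca* and 0 times in *Gsk3b*, against 32.7% of all windows with a match. Of the windows printed, only that of *Gsk3b* holds TATAAA (12.4% of all windows). Over the 15 windows of the 7 members, 4 hold CCAAT, 9 hold GGGCGG and 1 holds TATAAA, each in either orientation. The GLI site TGGGTGGTC or its reverse complement GACCACCCA was in none of the 15 windows of the 7 members, where 0.225% of all windows hold it, which says only that these letters were not in these windows. These letters were chosen with the sequences in view, and a match is a description and not a bound site.

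Loss of GLI3 was compared with WT at each stage, the contrast that removes the GLI3 repressor. At E9.25 all 9 members had a higher mean in *Gli3*-/- (log2 fold changes 0.12 to 0.73, median 0.36), but so did most genes (median of all genes 0.23), and no member was called by limma at an adjusted p of 0.05. The background was equally thin, with 20 of 14760 genes called (0.136%), and 4 members had an unadjusted p under 0.05, as did 22.0% of all genes. At E10.5 the members were closer still, with fold changes between -0.06 and 0.16 (median 0.02), 0 members called, where 4.77% of 15654 genes were called, and 0 members with an unadjusted p under 0.05, where 19.6% of genes had one. None of the 9 members had non-overlapping genotypes at either stage, against 13.3% of genes at E9.25 and 19.3% at E10.5. *Ptch1*, the HH receptor and a direct target, was higher in *Gli3*-/- at both stages by 2.28 and 1.58 on the log2 scale (limma, adjusted p = 0.0309 and 0.000287). Its E9.25 difference came with the higher flank and endothelial marker sums of the same libraries, whose part in it was not tested. That call was lost with no filter (adjusted p = 0.306), with a pseudocount of 0.1 (0.0532) and without E9.25 WT replicate 3 or E9.25 *Gli3*-/- replicate 1, 2 or 3 (0.075 to 0.152), while its size stayed between 1.89 and 2.58 in every alternative.

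**Figure D2:**
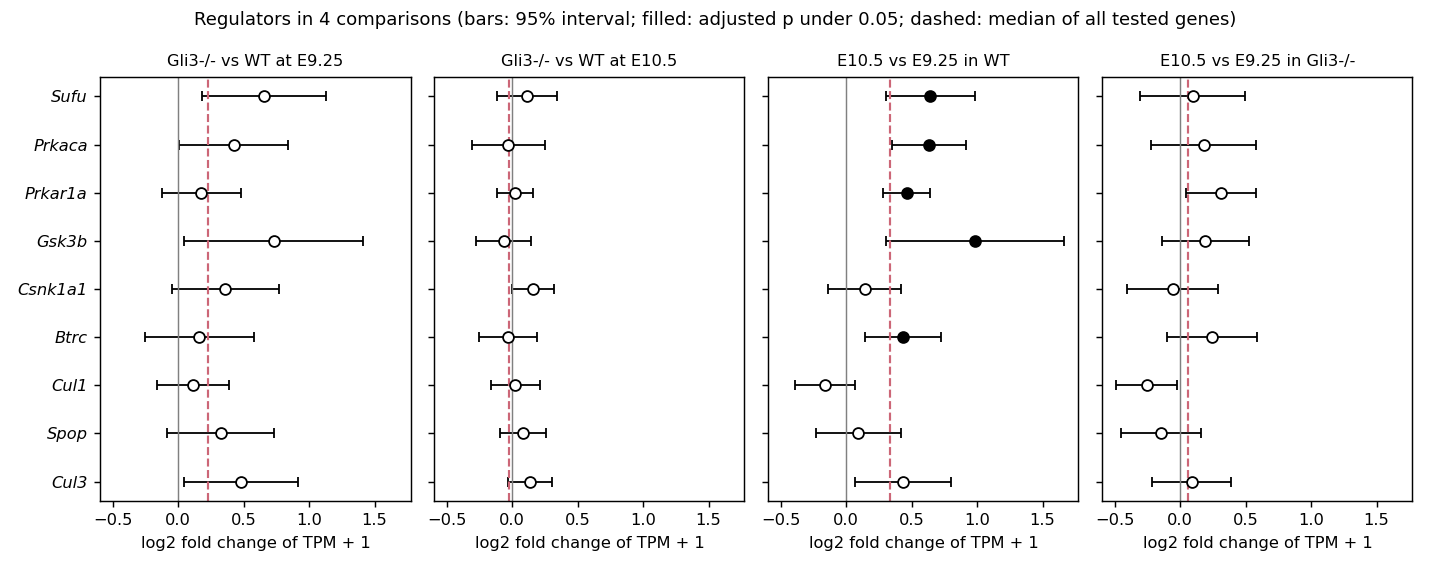
Log2 fold change of TPM + 1 (x axis) of each regulator (y axis) in 4 comparisons, with 95% confidence intervals, filled points for adjusted p under 0.05 and a dashed line at the median of all tested genes. Only the WT stage comparison has filled points, 5 of 9, and there the dashed line itself lies at 0.34.

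The stage comparison in WT gave the only calls. *Gsk3b*, *Sufu*, *Prkaca*, *Prkar1a* and *Btrc* were higher at E10.5 (5 of 9 members, limma, adjusted p under 0.05) and none was lower. This is close to the background, since 48.7% of 15444 genes were called in either direction and 38.1% were called higher, and the 5 members whose groups did not overlap compare with 53.5% of genes. At an unadjusted p under 0.05 there were 6 members and 57.9% of genes. The TPM of the median gene was itself 0.34 higher on the log2 scale at E10.5. Relative to that shift, *Gsk3b* stood 0.65 above, *Sufu* 0.30, *Prkaca* 0.30, *Prkar1a* 0.13, *Btrc* 0.097 and *Cul3* 0.097 above, whereas *Csnk1a1* was at -0.19, *Spop* at -0.25 and *Cul1* at -0.50. When the libraries were scaled by median-of-ratios size factors, which removes most of the shift, 0 of the 5 rises were called and *Cul1* was called lower (-0.50, adjusted p = 0.00461). Quantile normalization, which also removes the shift, kept *Prkaca*, *Prkar1a* and *Gsk3b* called higher (3 of 9). Of all genes, 20.6% were called higher and 21.2% lower with the first of these scalings, and 17.3% higher and 19.7% lower with the second.

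In *Gli3*-/- buds the same stage comparison gave 0 of 9 members called by limma, where 25.0% of 15434 genes were called, and 2 had an unadjusted p under 0.05, as did 37.2% of genes. The median gene moved by 0.06 there, and 2 of 9 members had non-overlapping groups (35.7% of genes), *Prkar1a* above and *Cul1* below. The stage difference was tested against genotype in 1 model of all 14 libraries, and no member differed (0 of 9, adjusted p 0.23 to 0.71, 2.13% of 16368 genes called, 2 members with an unadjusted p under 0.05 as against 21.0% of genes). The point estimates were all negative, -0.79 to -0.09, around a median of -0.24 for all genes. The lowest, that of *Gsk3b*, was -0.36 without E9.25 WT replicate 2. A stage difference particular to WT is therefore not shown for any member.

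*Sufu* (chr19:46396896-46488804, mm10) encodes the cytoplasmic protein that binds and restrains GLI. Its TPM was 27.1, 18.4 and 19.6 in E9.25 WT and 26.7, 46.5, 37.1 and 29.9 in E9.25 *Gli3*-/-. At E10.5 it was 34.7, 30.9, 38.2 and 32.5 in WT and 35.5, 42.0 and 33.3 in *Gli3*-/-. The E9.25 WT libraries were the lowest group, and only replicate 1 of that group reached the lowest E9.25 mutant. The rise from E9.25 to E10.5 in WT was 0.64 on the log2 scale (SE 0.15, limma adjusted p = 0.00908), and 0.54 (adjusted p = 0.0164) without E9.25 WT replicate 2. At E9.25 the genotype difference was 0.66 (95% interval 0.18 to 1.13, adjusted p = 0.217), which passed the threshold only in a fit of all 14 libraries together (adjusted p = 0.0491). The flank marker sum differed between the same groups, as did the summed level of 5 endothelial markers (56.9 to 89.0 TPM in WT and 99.4 to 142 in *Gli3*-/-). Summed muscle progenitor markers (2.29 to 3.83 and 0.436 to 1.23) and the sum of 5 neural and crest markers (6.05 to 12.6 and 3.34 to 5.10) were lower in *Gli3*-/-. Of those 5, 4 were under 1 TPM in every library of both groups, so that sum followed *Tubb3* (-1.15, limma adjusted p = 0.149). *Sox10* went the other way without overlap (0.168 to 0.202 and 0.442 to 0.994 TPM). The sum of 6 surface ectoderm and ridge markers overlapped (147 to 218 and 198 to 340.4). Of these, *Krt18* was higher (25.8 to 47.5 and 53.1 to 132) and *Fgf8* lower (40.3 to 71.1 and 17.6 to 36.6) without overlap. *Epcam*, *Cdh1*, *Krt8* and *Trp63* overlapped, and the part of all these markers in the *Sufu* difference was not tested.

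PKA is a tetramer of catalytic subunits held inactive by regulatory subunits until cyclic AMP binds. *Prkaca* (chr8:83972978-83996445), the main catalytic subunit, was at 68.8, 63.4 and 54.9 TPM in E9.25 WT and 102, 81.9, 110.1 and 95.2 in E10.5 WT. The *Gli3*-/- libraries gave 63.6, 107, 96.1 and 74.5 TPM at E9.25 and 88.5, 113 and 85.0 at E10.5. The WT stages were separate, with a difference of 0.63 (SE 0.12, limma adjusted p = 0.0044), while the mutant stages overlapped (adjusted p = 0.514). *Prkar1a* (chr11:109649405-109669656), the regulatory subunit that restrains it, was among the steadiest members, at 136, 122 and 133 TPM in E9.25 WT and 179.6, 169.9, 183 and 188 in E10.5 WT. The mutants gave 123, 172, 154 and 144 and 179, 191 and 179.5. E10.5 lay above E9.25 in both genotypes without overlap, by 0.46 in WT (SE 0.08, limma adjusted p = 0.00252) and by 0.31 in *Gli3*-/- (95% interval 0.04 to 0.58, adjusted p = 0.0859). The mutant difference missed the threshold and passed it without E9.25 *Gli3*-/- replicate 2 (0.38, adjusted p = 0.029) and with quantile normalization, median-of-ratios scaling, quality weights or all 14 libraries in one model (limma adjusted p 0.00946 to 0.0463). Within a library there were between 1.60 and 2.42 *Prkar1a* transcripts per *Prkaca* transcript, and the 4 groups overlapped in this ratio.

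Other genes around PKA were read from a list of 8, comprising subunits, inhibitors and inputs. In WT, 7 of the 8 were called higher at E10.5 (median 0.70), where 38.1% of all genes were. One of the 7, *Prkar1b*, reached the low-expression filter only through its E10.5 libraries, so its direction was fixed by the filter. The list was led by *Pkia*, a PKA inhibitor, at 1.31 (SE 0.17), *Gpr161*, the ciliary receptor that raises cyclic AMP, at 0.93 (SE 0.26), and *Prkacb*, the second catalytic subunit, at 0.79 (SE 0.19). With median-of-ratios scaling 4 of the 8 were called, all higher, where 20.6% of all genes were. In *Gli3*-/- 7 of the 8 were tested and only *Pkia* passed (0.92, SE 0.12, limma adjusted p = 0.000338), where 25.0% of all genes were called. None of the 8 was called between genotypes at either stage, where 0.136% of all genes were called at E9.25 and 4.77% at E10.5.

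*Gsk3b* (chr16:38089001-38246084) encodes the kinase that extends the PKA-primed phosphorylation. It was at 32.4, 11.2 and 25.5 TPM in E9.25 WT, and E9.25 WT replicate 2 was the lowest of all 14 libraries. It was at 42.0, 37.8, 42.8 and 49.1 TPM in E10.5 WT, and the stages did not overlap. The *Gli3*-/- libraries gave 28.7, 44.0, 39.0 and 32.6 TPM at E9.25 and 39.0, 43.6 and 40.2 at E10.5. The WT stage difference, 0.99 (SE 0.30, limma adjusted p = 0.0256), was the largest of any member with all libraries. It was 0.55 (limma adjusted p = 0.0107) without E9.25 WT replicate 2, where *Prkaca* had the larger difference. The call was lost without E10.5 WT replicate 1, 3 or 4 (adjusted p 0.053 to 0.0675). The genotype difference at E9.25, 0.73 (adjusted p = 0.22), was 0.30 without the low library. *Gsk3b* spans 157 kb and stood 1.29 lower on the log2 scale in that library than in the other E9.25 WT libraries, and the other members stood between -0.55 (*Cul3*) and 0.33 (*Spop*) there. The longest member, *Btrc* (169.6 kb), stood at -0.038.

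*Csnk1a1* (chr18:61555274-61590061), casein kinase 1 alpha, was the most abundant member. It was at 203, 144 and 170.3 TPM in E9.25 WT and 172, 288, 229 and 206 in E9.25 *Gli3*-/-. At E10.5 it was at 177, 192, 179 and 209 in WT and 205, 212 and 217 in *Gli3*-/-. The groups overlapped in all 4 comparisons. Its E10.5 genotype difference was the largest of the members at that stage but small, 0.16 (95% interval -0.0028 to 0.32, limma adjusted p = 0.263), and its stage differences were 0.14 in WT and -0.06 in *Gli3*-/- (adjusted p = 0.343 and 0.825). Of the 6 GSK3 and casein kinase 1 paralogues, *Gsk3a* (0.43), *Csnk1e* (0.43) and *Csnk1d* (0.37) were higher at E10.5 in WT (limma, adjusted p 0.0116 to 0.0349). These 3 of 6 compare with 38.1% of all genes called higher, and none of the 3 was called after median-of-ratios scaling. None of the 6 was called in the other comparisons, where between 0.136% and 25.0% of all genes were called.

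*Btrc* (chr19:45363734-45533341), beta-TrCP1, was the least abundant member. It was at 9.45, 9.57 and 10.3 TPM in E9.25 WT and 12.9, 12.04, 14.2 and 15.2 in E10.5 WT. The mutants gave 8.595, 13.3, 12.3 and 10.497 and 12.9, 13.5 and 13.3. The WT stages did not overlap, and the difference was 0.44 (SE 0.13, limma adjusted p = 0.0232). That call was lost without E10.5 WT replicate 1, 3 or 4 (adjusted p 0.055 to 0.0715). The gene model overlaps *Gm6807* on the opposite strand over 888 bases, whose mean of 153 TPM is far above that of *Btrc*, and since the use of strand in counting is not given in the sources used here, the *Btrc* values are uncertain. *Cul1* (chr6:47453398-47526139), the scaffold of the same ligase, was at 151, 124 and 158 TPM in E9.25 WT and 149.8, 166, 152 and 156 in E9.25 *Gli3*-/-. At E10.5 it was at 128, 131, 119.8 and 136 in WT and 135, 116 and 143 in *Gli3*-/-. It was the only member with a lower mean at E10.5 in WT, by -0.16 (95% interval -0.39 to 0.07, limma adjusted p = 0.207), and in *Gli3*-/- it was at -0.25 (95% interval -0.49 to -0.02, adjusted p = 0.105) with every E10.5 library below every E9.25 library. Without E9.25 WT replicate 2 the WT difference was -0.26 and was called (adjusted p = 0.0406). With median-of-ratios scaling *Cul1* was called lower at E10.5 in both genotypes, by -0.50 in WT and -0.32 in *Gli3*-/- (adjusted p = 0.00461 and 0.043). The ratio of *Cul1* to *Btrc* within a library, which no single scaling factor per library can move, was 13.01 to 16.0 in E9.25 WT, 12.3 to 17.4 in E9.25 *Gli3*-/-, 8.41 to 10.9 in E10.5 WT and 8.54 to 10.7 in E10.5 *Gli3*-/-. The ratio was thus lower in each E10.5 library than in any E9.25 library, a description chosen after the values were seen and subject to the doubt about *Btrc*.

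*Spop* (chr11:95414080-95493406), the adaptor that marks full-length GLI for destruction, was called in none of the 4 comparisons on TPM. It was at 45.3, 48.6 and 32.5 TPM in E9.25 WT and 43.7, 65.3, 52.5 and 49.8 in E9.25 *Gli3*-/-. At E10.5 it was at 45.3, 43.0, 41.3 and 48.1 in WT and 43.8, 48.3 and 49.5 in *Gli3*-/-. Its WT stage difference was 0.09 (95% interval -0.23 to 0.42, limma adjusted p = 0.604), and it turned negative under quantile and median-of-ratios scaling. Its stage difference in *Gli3*-/- was -0.15 (95% interval -0.45 to 0.16, limma adjusted p = 0.48), and it was called lower there once the trend on gene span was removed (-0.29, adjusted p = 0.0338). *Cul3* (chr1:80264923-80340480, minus strand), the scaffold that SPOP docks onto, was at 60.5, 35.7 and 45.7 TPM in E9.25 WT and 59.8, 65.2, 59.0 and 68.0 in E10.5 WT. The mutants gave 57.1, 82.7, 64.1 and 58.8 and 66.1, 68.0 and 73.6. Replicate 1 of E9.25 WT lay within the E10.5 WT range, and the difference of 0.43 just missed the threshold (limma adjusted p = 0.0522). Without that library it was 0.63 and called (adjusted p = 0.00609), and without E9.25 WT replicate 2 it was 0.25 and not called (adjusted p = 0.13). *Cul3* exceeded *Spop* in 13 of the 14 libraries, with a ratio between 1.18 and 1.52 in those, and the exception was E9.25 WT replicate 2 at 0.735.

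The remaining parts of the machinery were read from the other lists, against 38.1% of all genes called higher and 10.6% called lower with stage in WT. Of 4 ligase partners, only *Fbxw11*, the second beta-TrCP, rose with stage in WT (0.49, SE 0.11, limma adjusted p = 0.00771), where the median gene rose by 0.34. *Skp1a* and *Rbx1*, also ligase partners, were at -0.01 and -0.07 (limma adjusted p = 0.961 and 0.45). Of 6 other cullins, *Cul7* (0.42) and *Cul4a* (0.41) rose in WT, and neither was called after median-of-ratios scaling, where *Cul2* was called lower (-0.40, adjusted p = 0.0114). *Cul9* reached the filter only through E10.5 WT, at 1.53 to 1.95 TPM there and under 1 TPM in every library of the other 3 groups, so its direction was fixed by the filter and its values are given as a description. Of 12 genes for neddylation and its removal, the modification that switches cullins on and off, *Cops5*, the deneddylase, was the single one called on TPM, and it fell by 0.41 in WT (limma adjusted p = 0.00881). The 12 had a median of -0.18 there, and 6 were called lower with median-of-ratios scaling and 2 with quantile normalization. The 31 proteasome genes were lower on balance in WT at E10.5 (median -0.26 against 0.34 for all genes), with 16 called lower and 0 higher, led by *Psmd6* (-0.59), *Psma3* (-0.51) and *Psmd12* (-0.45). That count was 26 after median-of-ratios scaling, where 21.2% of all genes were called lower, and 8, with 1 higher, after quantile normalization, where 19.7% of all genes were called lower. In *Gli3*-/- 0 of the 31 were called by limma, where 25.0% of all genes were called in either direction, and at most 7 were called lower under the alternatives. Of 7 further regulators of GLI, *Stk36* (1.65), *Dzip1* (0.97), *Numb* (0.79) and *Itch* (0.68) rose in WT. *Numb* also rose in *Gli3*-/- (0.47), and *Dzip1* was lower in *Gli3*-/- than WT at E10.5 (-0.56, limma adjusted p = 0.0262). The limb mesenchyme marker sum was lower in the same libraries (588 to 630 TPM, against 762 to 919 in WT), although *Fgf10* was higher (1.05). That of the surface ectoderm and ridge markers was higher (267 to 301, against 178 to 217), with *Fgf8* at 1.36. *Cdh1*, *Krt8*, *Krt18* and *Trp63* had lower means there. The part of all these markers in the *Dzip1* difference was not tested. *Stk36*, a kinase of the fused family, was not called between genotypes at E9.25 (0.70, limma adjusted p = 0.217) or E10.5 (-0.60, adjusted p = 0.0934). The stage by genotype test called 2.13% of all genes, with the median gene at -0.24. Of these lists it called *Stk36* alone (-1.30, limma adjusted p = 0.0283). That call was lost with quantile normalization, the replicate block, the span trend removed or no filter and on leaving out E9.25 WT replicate 2 or 3, E9.25 *Gli3*-/- replicate 3, E10.5 WT replicate 1, 3 or 4 or E10.5 *Gli3*-/- replicate 1 or 3 (adjusted p up to 0.102), and the estimate was -1.62 to -0.97 over all alternatives.

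6 of the members have close paralogues, and the share that each took of the summed TPM is a value that no single scaling factor per library can move. *Prkaca* made up 66.2%, 77.4% and 67.5% of *Prkaca* plus *Prkacb* in E9.25 WT and 69.8%, 66.8%, 69.6% and 65.9% in E10.5 WT. *Prkar1a* made up between 66.4% and 73.5% of the 4 regulatory subunits, *Spop* between 68.0% and 79.6% of *Spop* plus *Spopl*, and *Csnk1a1* between 43.6% and 52.7% of the 3 kinases compared. These members were the major or the largest form in each library. *Gsk3b* was the minor form beside *Gsk3a*, at 30.4%, 15.9% and 31.2% in E9.25 WT and 31.6%, 33.1%, 31.4% and 38.0% in E10.5 WT. *Btrc* was the minor form beside *Fbxw11*, at 15.8%, 19.4% and 18.5% in E9.25 WT and 15.0%, 15.0%, 15.7% and 15.5% in E9.25 *Gli3*-/-. Each share was compared in the 4 contrasts with an exact two-sided permutation test over 35 splits, whose smallest p is 0.0286. In 7 of the 24 tests the groups did not overlap, and 5 reached that smallest p, but none passed after Benjamini-Hochberg adjustment over the 24 (lowest adjusted p = 0.137), for which 14 tests at the smallest p would have been needed. How often the shares of other paralogues lack overlap was not measured, so these counts are a description. Those 5 were *Gsk3b* with stage in WT (7.70 percentage points higher at E10.5, and 2.75 without E9.25 WT replicate 2), *Btrc* with genotype at E9.25 (-2.61 points in *Gli3*-/-), *Btrc* with stage in *Gli3*-/- (1.38 points, both subject to the doubt about *Btrc*), *Prkar1a* with genotype at E10.5 (1.11 points) and *Csnk1a1* with stage in *Gli3*-/- (-3.77 points, and -2.51 without E10.5 *Gli3*-/- replicate 2). The other 2 without overlap were *Prkar1a* with genotype at E9.25 (-3.98 points in *Gli3*-/-, against 1.11 at E10.5) and with stage in *Gli3*-/- (4.71 points), each at an exact p of 0.0571.

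**Figure D3:**
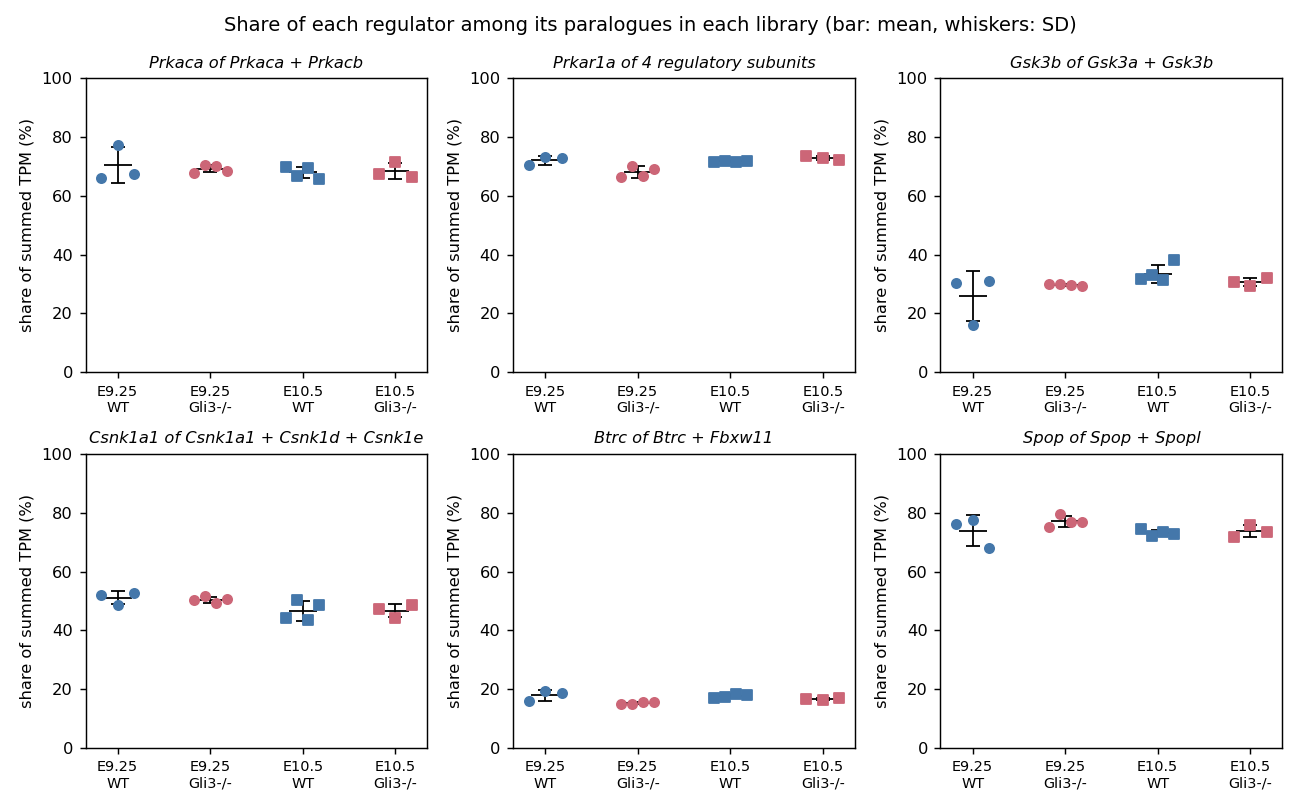
Share of summed TPM (y axis, percent) that each of 6 regulators took among its paralogues in every library of the 4 groups (x axis), with points for libraries, bars for means and whiskers for the SD. The shares of *Prkaca*, *Prkar1a* and *Spop* stay above 65%, *Gsk3b* and *Btrc* below 40%, and the lone low point of *Gsk3b*, 15.9%, is E9.25 WT replicate 2.

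Much of the variation of the members ran across whole libraries. In E9.25 *Gli3*-/-, replicate 2 was the highest and replicate 1 the lowest of the 4 libraries for 9 of 9 members, and the median gene moved the same way, 0.17 above and 0.18 below the other libraries on the log2 scale (-0.18). The median member moved farther than the median gene, by 0.42 in replicate 2 and -0.40 in replicate 1. The SD of log2(TPM + 1) was under 0.23 for every member at E10.5 and up to 0.76 (*Gsk3b* in WT) at E9.25, although *Cul1* in *Gli3*-/- and *Btrc* and *Prkaca* in WT had a larger SD at E10.5. Over the 14 libraries, the genes whose log2(TPM + 1) followed a member most closely, among 11085 genes with a mean of at least 5 TPM, were *Fam171a1* and *Med15* for *Sufu* (Pearson r = 0.991 and 0.986), *Dbn1* and *Ube3b* for *Prkaca* (0.987 and 0.979), *Mtmr12* and *Sh3bp2* for *Prkar1a* (0.986 and 0.985) and *Glg1* and *March6* for *Gsk3b* (0.992 and 0.991). For *Cul3* they were *Smek1* and *Ppp3cb* (0.983 and 0.982), for *Cul1* *Noc3l* and *Seh1l* (0.962 and 0.942), for *Csnk1a1* *Tmed7* and *0610030E20Rik* (0.942 and 0.939), and for *Spop* *Fbxo22* and *Fez2* (0.937 and 0.929). For *Btrc* they were *Slc25a11* and *Prkar1a* (0.954 for both), the only case in which 1 member was among the nearest genes of another. After each group's mean was removed these r values lay between 0.88 and 0.99, and all points share the depth and scaling of their library. Among the members, *Cul1* was the farthest for each of the 8 others over the 14 libraries, with r from -0.43 (*Prkar1a*) to 0.45 (*Csnk1a1*). With each group's mean removed, its r with them ran from -0.23 (*Prkaca*) to 0.66 (*Cul3*). For *Csnk1a1*, *Spop* was then farther (0.53) than *Cul1* (0.57). Whether *Cul1* stayed the farthest for the other members was not ranked on those values.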

How the data were processed

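RNA was extracted with TRIzol, libraries were made with the NEBNext Ultra II RNA kit and sequenced as single 100-base reads, and the authors aligned them with HISAT2. The submitters' processing notes name the build mm10, and the tool and annotation that gave the gene values are not given in the sources used here. The authors deposited 1 table per library with TPM, FPKM and coverage for 46983 gene identifiers. The deposited TPM values were used for all levels and tests, and the deposited FPKM and coverage served only to estimate reads per library. Since no counts were used, log2(TPM + 1) was tested with limma 3.58.1 (R 4.3.3, trended variance) on genes with at least 1 TPM in at least 3 libraries, using only the groups compared, with Benjamini-Hochberg adjustment over all genes tested and a threshold of 0.05. A log2 fold change on this scale understates changes of genes with low levels. Paralogue shares were compared with exact permutation tests. Groups came from the sample titles. The members and the gene lists were chosen with earlier results of these data known. The named genes were all members, their paralogues, *Gli3* and *Ptch1*. To these came up to 3 called genes with the largest change per list and comparison, and the 2 genes closest to each member. *Itch* (the fourth called gene of its list), *Skp1a*, *Rbx1*, *Cul2*, *Prkar1b*, *Tubb3*, *Sox10* and *Gm6807* were named after their values were seen. So were the limb mesenchyme, the flank and the surface ectoderm and ridge markers. Alternatives were a pseudocount of 0.1, no filter or one at 5 TPM, no variance trend, quantile and median-of-ratios scaling, sample quality weights, all 14 libraries in one model, a replicate block, removal of the trend on gene span, and leaving out each library. The limma fits were tested on simulated data.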

Additional observations from a re-analysis of the deposited data

How the results depend on the processing

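Under the alternatives run, no member was called in either genotype comparison or in the stage by genotype test, except *Sufu* at E9.25 (1 member) with all 14 libraries in one model. That model called 796 of 16368 genes at E9.25. The WT stage comparison gave 5 calls as reported, 3 with quantile normalization (*Prkaca*, *Prkar1a* and *Gsk3b*), and 1 member (*Cul1*, lower) was called with median-of-ratios scaling and with the trend on gene span removed, 6 were called with all 14 libraries in one model and 7 (6 higher, 1 lower) with quality weights, while leaving out 1 library gave 3 to 6. Of all 15444 genes, 7520 were called there as reported, 5718 with quantile normalization and 6458 with median-of-ratios scaling. Removing the span trend gave 6121 and quality weights 8556. All 14 libraries in one model called 8539 of 16368 genes, and leaving out 1 library gave 5139 to 8305. In *Gli3*-/- the stage comparison, 0 as reported, gave 1 with quantile normalization (*Prkar1a*, higher), 2 with median-of-ratios scaling (*Prkar1a*, and *Cul1* lower), 1 with quality weights and 1 with all 14 libraries in one model (*Prkar1a* in both), 2 with the span trend removed (*Spop* and *Cul1*, lower), and 0 to 1 on leaving out 1 library. Among all 15434 genes this comparison called 3853 as reported, 4528 with quantile normalization and 4653 with median-of-ratios scaling. Quality weights gave 6520 and removing the span trend 4599. The model of all 14 libraries called 4032 of 16368 genes, and leaving out 1 library gave 2129 to 4326. By the numbers in the titles, same-numbered libraries did not deviate together (correlations between -0.27 and 0.13, and 0 to 2 of 6 libraries closest to their own number), so the numbers were read as names. The deposited tables of E10.5 *Gli3*-/- carry other numbers than the titles. With those, the E10.5 pairs correlated at 0.050 to 0.29, 4 of 6 libraries were closest to their own number, a hint from the data and not the design, and a replicate block called 0 members and 498 genes. In the stage comparison of *Gli3*-/- they gave -0.084 to 0.15 and 2 of 6. With the replicate block 0 members were called at E9.25, 0 at E10.5, 4 in the WT stage comparison and 0 in the others, where all genes gave 66, 164, 4699, 3824 and 138 calls. Over all alternatives the calls among all genes ran from 0 to 796 at E9.25, 164 to 1356 at E10.5, 4699 to 8556 with stage in WT, 2129 to 6520 with stage in *Gli3*-/- and 138 to 1433 for the stage by genotype test. In the E9.25 genotype comparison the sign turned for *Spop* at -0.017, *Prkar1a* at -0.036, *Btrc* at -0.23 and *Cul1* at -0.22 with the span trend removed, *Prkar1a* at -0.059, *Btrc* at -0.056 and *Cul1* at -0.12 with median-of-ratios scaling and *Btrc* at -0.12 with quantile normalization. In the E10.5 genotype comparison the sign turned for *Gsk3b* at 0.0024 and *Btrc* at 0.020 with the replicate block, *Btrc* at 0.014 with quantile normalization and *Btrc* at 0.0090 with the span trend removed. Leaving out 1 library at a time turned it for *Prkaca* (-0.16 to 0.048), *Prkar1a* (-0.0057 to 0.045), *Gsk3b* (-0.12 to 0.0024), *Btrc* (-0.083 to 0.020) and *Cul1* (-0.041 to 0.11). In the WT stage comparison the sign turned for *Spop* at -0.10 with quantile normalization, *Spop* at -0.25 and *Csnk1a1* at -0.20 with median-of-ratios scaling and *Spop* at -0.41, *Csnk1a1* at -0.25, *Btrc* at -0.16 and *Cul3* at -0.064 with the span trend removed. Leaving out 1 library at a time turned it for *Spop* (-0.079 to 0.20). In the *Gli3*-/- stage comparison the sign turned for *Sufu* at -0.046 and *Cul3* at -0.047 with the span trend removed and *Csnk1a1* at 0.025 with quantile normalization. Leaving out 1 library at a time turned it for *Sufu* (-0.018 to 0.24) and *Csnk1a1* (-0.18 to 0.072). In the stage by genotype test the sign turned for *Spop* at 0.029, *Prkar1a* at 0.12, *Csnk1a1* at 0.071, *Btrc* at 0.060 and *Cul1* at 0.18 with median-of-ratios scaling, *Spop* at 0.11, *Prkar1a* at 0.085, *Csnk1a1* at 0.073, *Btrc* at 0.22, *Cul1* at 0.25 and *Cul3* at 0.00028 with the span trend removed, *Btrc* at 0.13 with quantile normalization and *Cul1* at 0.039 with quality weights. Leaving out 1 library at a time turned it for *Cul1* (-0.16 to 0.011). The *Csnk1a1* share difference at E10.5 was 5.5e-06 as a log2 ratio. The cause of these changes was not tested.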
